A study of Mus musculus with 27 samples.

Results

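RNA-seq data of iMEFs, immortalized fibroblasts of mouse embryos that carry a conditional knockout (cKO) allele of *Setdb1*, were examined for the zinc finger genes whose name is Zfp followed only by digits. Of 22258 genes that the siRNA and inhibitor libraries name at a locus of their own, 332 carry such a name once *Zfp809* is left out. Of these, 275 reached 1 FPKM (fragments per kilobase of transcript, scaled to the mapped fragments of the library) in at least 2 of the 18 libraries and are described here, and 57 did not. These genes were chosen by their FPKM in those libraries, so the levels are a description, and a gene that is high in a single group of 2 libraries could pass through that group alone. Of the 275 genes, 2 reached 1 FPKM in no more than 2 groups. *Zfp446* reached 1 FPKM in 4OHT + siCtrl and 4OHT + siDnmt1, and *Zfp493* in 4OHT day 6 and 4OHT + siDnmt1.

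All 27 libraries, controls included, came from *Setdb1* cKO iMEFs, a recloned line in which 4-hydroxytamoxifen (4OHT) triggers Cre-mediated deletion of *Setdb1*. The total RNA experiment (9 libraries, depleted of ribosomal RNA) held 3 untreated libraries, 3 of cells harvested at day 5 after 4OHT had been given for the first 4 days (4OHT day 5), and 3 of cells cultured for more than 2 weeks after 4OHT (long-term KO). The siRNA experiment (8 libraries, harvest at day 6) held 2 libraries each of control siRNA (siCtrl), siRNA against *Dnmt1* (siDnmt1), 4OHT + siCtrl and 4OHT + siDnmt1. The inhibitor experiment (10 libraries) held 2 libraries each of untreated cells, the histone deacetylase inhibitor trichostatin A (TSA, 150 nM for 24 h), the MEK inhibitor PD0325901 (1 µM for 24 h), 4OHT day 6, and 4OHT with PD0325901 for the last 24 h. No group received 4OHT without the conditional allele, so effects of 4OHT itself and of *Setdb1* loss cannot be told apart. The cells are a single immortalized line grown in culture, and in bulk RNA fewer cells with a transcript and less transcript per cell cannot be told apart. Nothing states that replicates came from separate cultures, so the p-values measure the spread between these libraries, which may be technical.

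Zfp genes encode mostly C2H2 zinc finger proteins, in which tandem fingers read DNA sequence. Many of them carry a Krüppel-associated box (KRAB), which binds the corepressor Trim28. Trim28 in turn brings Setdb1, which methylates lysine 9 of histone H3, together with HP1 proteins, histone deacetylases and DNA methylation. KRAB zinc finger genes lie in clusters of tandem copies, many of them target endogenous retroviruses (ERVs), and the 3′ ends of KRAB zinc finger genes are themselves known sites of histone H3 lysine 9 methylation. Zfp genes without a KRAB box include regulators of differentiation and RNA-binding proteins.

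Between 9268 and 11417 genes reached 1 FPKM per library, and between 244 and 275 of the 275 Zfp genes had a value. The confidence interval that the authors deposited with each FPKM had a median half-width of 8.74% to 10.1% of the value over the Zfp genes in total RNA libraries, 13.0% to 15.3% in siRNA libraries and 15.1% to 16.8% in inhibitor libraries, and no read total was used here. The median SD between replicates was 0.08 to 0.26 on the log2 scale, highest in 4OHT day 6 and 4OHT + siCtrl. *Dnmt1* was at 80.5 and 73.4 FPKM with siCtrl and 12.2 and 10.6 FPKM with siDnmt1. The FPKM of *Setdb1* covers the whole locus. In total RNA it was 5.16 to 5.95 untreated, 4.16 to 6.52 at 4OHT day 5 and 6.96 to 7.32 in long-term KO, and in the siRNA experiment 7.40 and 6.48 with siCtrl and 7.58 and 5.00 with 4OHT + siCtrl. In the inhibitor experiment it was 8.76 and 10.1 untreated, listed at 0 and at 5.30 at 4OHT day 6 and listed at 0 in both 4OHT + PD0325901 libraries. Only in the inhibitor experiment were all 4OHT libraries below untreated ones. There, the libraries with PD0325901 and without 4OHT were below them too, at 5.34 and 5.56 FPKM. A value over the whole locus does not check the deletion of a part of the gene, and groups are called by their labels. The fibroblast markers with a value (9 of 10 in total RNA and 10 of 10 in the other experiments) all reached 1 FPKM. None of 8 haematopoietic markers did. Of 6 pluripotent markers, 1 reached 1 FPKM in total RNA, 1 in siRNA and 2 in inhibitor libraries. Of 4 endothelial markers, 1 did so in inhibitor libraries and 0 in the other experiments. Epithelial markers summed to between 0.457 and 41.2 FPKM in inhibitor libraries, and neural markers, of which 3 of 4 reached 1 FPKM, to between 42.9 and 89 FPKM in total RNA, 54.7 and 118 FPKM in siRNA and 36.3 and 179 FPKM in inhibitor libraries. The part of these markers in the results was not tested. The second PD0325901 library has a header line that names another group, and its sample label was followed.

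The Zfp genes were expressed at low to moderate levels. Their mean over the 18 named libraries had a median of 4.06 FPKM, with 49 genes at 10 FPKM or more and 17 below 1 FPKM. Of the 275 genes, 183 reached 1 FPKM in all 18 libraries. The highest mean levels were those of *Zfp207*, a spindle and kinetochore protein, at 104.9 FPKM, *Zfp36* at 61.2 FPKM, *Zfp706* at 50.3 FPKM, *Zfp330* at 38 FPKM and *Zfp106*, an RNA-binding protein, at 33.2 FPKM. *Zfp207* varied little, with 79.1 FPKM as the mean with TSA and 122 FPKM as the mean at 4OHT day 6. Just inside the limit of the rule lay *Zfp493*, *Zfp775* and *Zfp456*, whose second-highest values were 1.02, 1.10 and 1.19 FPKM, and just outside it lay *Zfp455* at 0.996 and *Zfp109* at 0.861 FPKM. The genes lie on 20 chromosomes, 72 of them on chromosome 7, 37 on chromosome 17 and 19 each on chromosomes 8 and 13.

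A translated reference transcript was matched for 269 of the 275 genes. Of these proteins, 140 hold a KRAB match (at least 6 of 11 conserved positions of the A box) and 129 do not. The search covered only windows around a tryptophan, and a KRAB box without that residue would be missed. A gene without a match may thus still encode a KRAB box. Proteins with a KRAB match had a median of 12 C2H2 fingers and those without had 8, with 36 in *Zfp142* as the highest number. No C2H2 match was found in 10, among them *Zfp36*, *Zfp185*, *Zfp503* and *Zfp703*. In 24 genes, at least 10% of the 51-base windows of the mRNA also occur in another gene's mRNA, and reads of such windows cannot be assigned with certainty. The promoters of these Zfp genes held more CG dinucleotides than promoters as a whole. In 224 of the Zfp genes, the 300-base RefSeq promoter (GRCm38.p6, 250 bases before to 50 bases after the start) had a median of 15 CG dinucleotides. The median was 12 with a KRAB match and 19 without, against 7 over all 27025 promoters. Those include promoters of genes not expressed here, while the Zfp genes were chosen by expression. A background of expressed genes was not computed.

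Comparisons were made between log2(FPKM + 0.1) values with limma over all genes of an experiment, and calls needed a Benjamini-Hochberg adjusted p below 0.05 together with a fold change of 2 or more. Genes entered the test with a value in every library and 1 FPKM in 3 libraries of total RNA or 2 of the other experiments, which 199 Zfp genes met in total RNA, 247 in the siRNA and 261 in the inhibitor experiment. Of the 267 Zfp genes tested in at least 1 experiment, 170 were called in no comparison, and 8 (*Zfp414*, *Zfp493*, *Zfp595*, *Zfp65*, *Zfp738*, *Zfp775*, *Zfp866* and *Zfp963*) were tested in none. The most calls were made with TSA. There, 14 Zfp genes were called higher and 50 lower, so that 24.5% were called, while 32.1% of all genes tested were called, 19.3% higher and 12.8% lower. Of the comparisons with untreated or siCtrl libraries, 4OHT day 5 gave the fewest at these limits and with all libraries in. There, 1 Zfp gene was called higher and 2 lower where 3.45% of all genes were called, 2.09% higher and 1.37% lower. At an adjusted p below 0.05 of any fold, 26.6% of Zfp genes passed at day 5 (all genes 37.5%). With siDnmt1 it was 4.45% (all genes 7.91%), and with PD0325901 6.13% (all genes 13.7%).

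**Figure D1:**
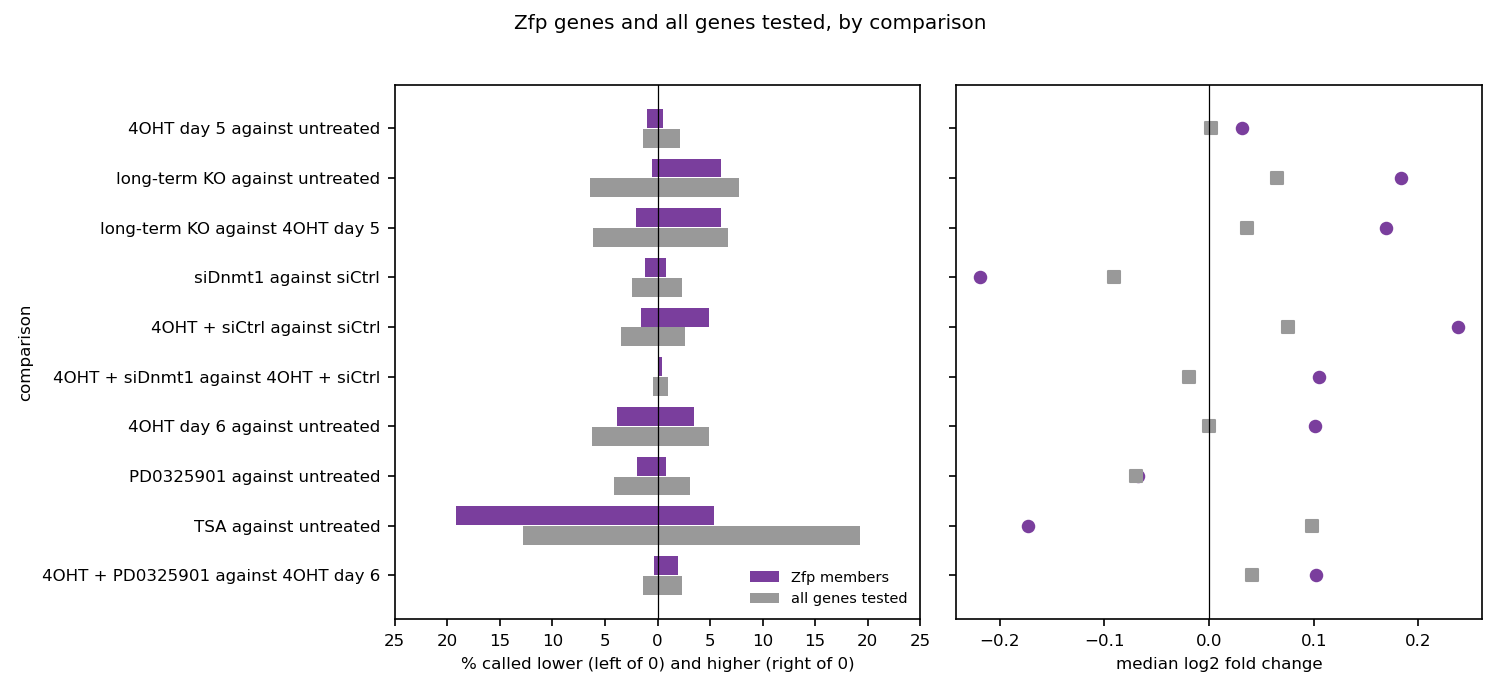
Share of genes called (left, in % of genes tested, lower to the left and higher to the right of 0) and median log2 fold change (right) in each comparison, for Zfp genes and for all genes tested. With TSA, 19.2% of Zfp genes were called lower and 5.36% higher, against 12.8% and 19.3% of all genes.

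*Zfp37*, a gene with 12 fingers and a KRAB match that was first described in male germ cells, was higher after 4OHT in all 3 experiments. In total RNA, it was at 5.25, 5.50 and 4.91 FPKM untreated, 23.6, 24.5 and 22.9 FPKM at 4OHT day 5 and 7.63, 7.29 and 7.45 FPKM in long-term KO. In the siRNA experiment, it was at 6.35 and 5.48 FPKM with siCtrl, 17 and 14.9 FPKM with siDnmt1, 34.5 and 36.2 FPKM with 4OHT + siCtrl, and 41.1 and 41.9 FPKM with 4OHT + siDnmt1. No library of a treated group overlapped with the controls of its experiment. The increase was 4.47-fold at day 5 (log2 fold change 2.16, SE 0.05, adjusted p = 7.91e-08), 5.91-fold with 4OHT + siCtrl (2.56, SE 0.12, adjusted p = 0.00034) and 2.67-fold with siDnmt1 alone (1.42, SE 0.12, adjusted p = 0.0025). Between 4OHT + siDnmt1 and 4OHT + siCtrl the log2 difference was 0.23 (adjusted p = 0.33), and the interaction of 4OHT with siDnmt1 was -1.19 (adjusted p = 0.10). In long-term KO, the log2 fold change was -1.65 against day 5 (adjusted p = 9.3e-08) and 0.51 against untreated cells (adjusted p = 4.2e-05), which is below 2-fold.

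In the inhibitor experiment, *Zfp37* moved in opposite directions with 4OHT and TSA. It was at 6.74 and 5.74 FPKM untreated, 36.2 and 37.4 FPKM at 4OHT day 6, 1.34 and 1.00 FPKM with TSA, 5.80 and 5.14 FPKM with PD0325901, and 17.2 and 21.0 FPKM with 4OHT + PD0325901. Day 6 and TSA libraries lay on either side of the untreated ones, and the PD0325901 libraries overlapped with them. The increase at day 6 was 5.84-fold (log2 fold change 2.55, SE 0.19, adjusted p = 0.00025) and the decrease with TSA was 5.02-fold (log2 fold change -2.33, SE 0.19, adjusted p = 5.1e-05). With PD0325901 added to 4OHT, *Zfp37* was lower than with 4OHT alone (log2 fold change -0.95, adjusted p = 0.027), below 2-fold. The 3 calls after 4OHT, the call with siDnmt1 and that with TSA were kept under all alternatives tried, each library left out included.

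The annotated locus of *Zfp37* is chr4:61850571-61869580 (mm9), and the protein has 594 residues. RefSeq gives 2 start sites, whose promoters are shown because this gene was called higher at 4OHT day 5, with 4OHT + siCtrl and at 4OHT day 6. They come from GRCm38.p6, a different build from that of the deposited files, are given 5′ to 3′ on the minus strand, and have CG dinucleotides, which read the same on both strands, in capitals.
Zfp37, chr4:62208497-62208796: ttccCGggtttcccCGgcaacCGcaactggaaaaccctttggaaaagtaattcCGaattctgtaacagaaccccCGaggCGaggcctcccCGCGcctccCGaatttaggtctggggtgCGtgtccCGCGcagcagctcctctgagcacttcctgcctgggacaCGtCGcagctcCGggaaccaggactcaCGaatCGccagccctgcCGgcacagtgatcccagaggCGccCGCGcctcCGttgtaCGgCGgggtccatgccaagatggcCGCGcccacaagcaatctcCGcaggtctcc
Zfp37, chr4:62208153-62208452: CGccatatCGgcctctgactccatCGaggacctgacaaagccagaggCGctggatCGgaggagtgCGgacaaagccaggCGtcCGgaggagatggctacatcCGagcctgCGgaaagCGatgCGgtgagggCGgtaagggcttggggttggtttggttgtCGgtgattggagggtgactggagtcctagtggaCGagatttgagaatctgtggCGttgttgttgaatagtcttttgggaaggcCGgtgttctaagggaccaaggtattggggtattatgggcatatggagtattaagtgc
The upstream promoter holds 27 CG dinucleotides, a number that 15.4% of all promoters of this length reach, and the other holds 17, which 31.9% reach. No methylation was measured in these libraries.

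**Figure D2:**
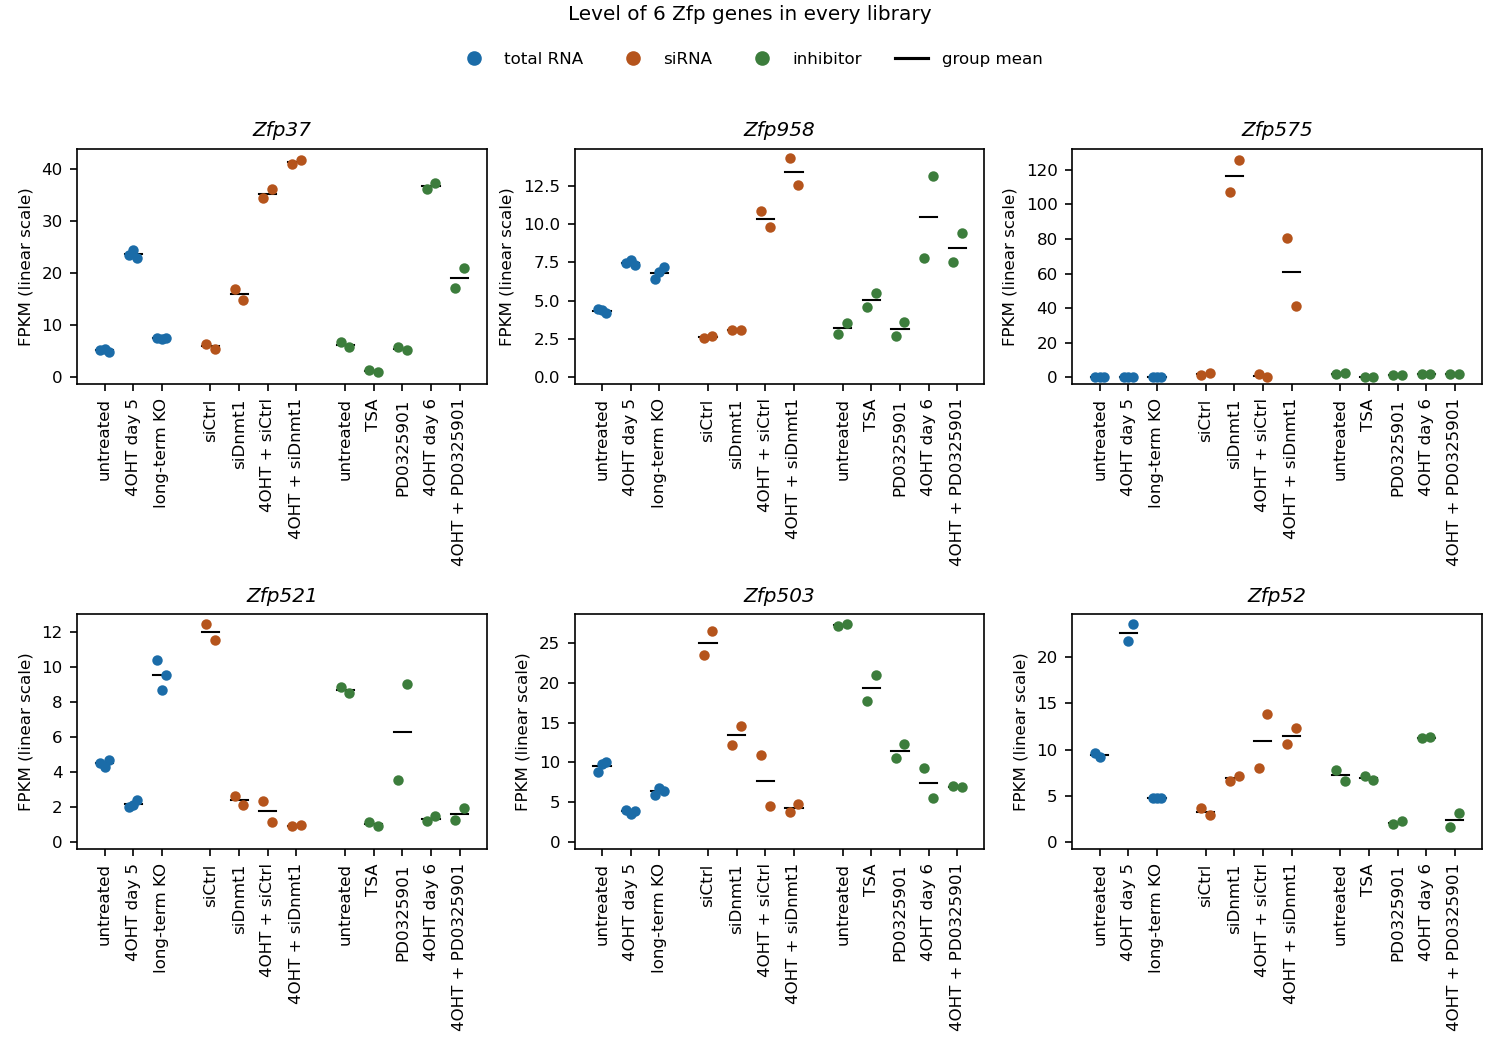
FPKM (linear axes) of *Zfp37*, *Zfp958*, *Zfp575*, *Zfp521*, *Zfp503* and *Zfp52* in each library, with points for libraries and lines for group means, and without 2 total RNA libraries in which *Zfp52* had no value. *Zfp37* stood at 22.9 FPKM or more in each 4OHT library of days 5 and 6 given without inhibitor, and *Zfp575* at 41.4 FPKM or more only with siDnmt1.

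*Zfp958*, *Zfp940* and *Zfp599*, each with a KRAB match, were also higher in all 3 4OHT effects, with *Zfp958* called in 2 of them. *Zfp958* was at 4.44, 4.36 and 4.20 FPKM untreated, 7.46, 7.64 and 7.29 FPKM at 4OHT day 5 and 6.41, 6.88 and 7.19 FPKM in long-term KO. With siCtrl it was at 2.57 and 2.70 FPKM and with 4OHT + siCtrl at 10.9 and 9.79 FPKM, and in the inhibitor experiment at 2.82 and 3.54 FPKM untreated and 7.77 and 13.2 FPKM at 4OHT day 6. The groups did not overlap in any of these comparisons. The log2 fold change was 0.77 at day 5 (adjusted p = 2e-05, below 2-fold), 1.93 with 4OHT + siCtrl (SE 0.14, adjusted p = 0.0018) and 1.65 at day 6 (SE 0.29, adjusted p = 0.0075). The call with 4OHT + siCtrl was lost with only the 2 groups compared in the fit, and the day 6 call without the first untreated library (1.49). *Zfp940* changed by 0.74 at day 5 and by 1.23 at day 6 (adjusted p = 0.012, called), and was at 1.08 with 4OHT + siCtrl (adjusted p = 0.050, not called). Its day 6 call was lost without either untreated or the second day 6 library (0.89 to 1.36, adjusted p = 0.051 to 0.085). For *Zfp599* the values were 0.72 at day 5, 0.86 with 4OHT + siCtrl (adjusted p = 0.084) and 1.07 at day 6 (adjusted p = 0.054). In long-term KO against day 5, *Zfp940* was lower by 1.09 and *Zfp599* by 1.19 on the log2 scale, both called.

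The locus of *Zfp958* is chr8:4613170-4630231 (mm9), its protein has 466 residues with 13 fingers, and its promoter is shown as that of the gene whose smallest log2 fold change over the 3 effects was next to that of *Zfp37* (GRCm38.p6, plus strand, the most upstream of the RefSeq starts, CG in capitals).
Zfp958, chr8:4612920-4613219: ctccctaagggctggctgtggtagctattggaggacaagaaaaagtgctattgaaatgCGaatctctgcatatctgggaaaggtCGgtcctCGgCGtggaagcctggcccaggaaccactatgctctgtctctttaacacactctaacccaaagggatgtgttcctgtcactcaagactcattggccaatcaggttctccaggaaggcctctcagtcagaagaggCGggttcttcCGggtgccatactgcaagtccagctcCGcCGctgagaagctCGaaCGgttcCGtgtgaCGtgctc
It holds 12 CG dinucleotides, which 40.1% of all promoters reach, fewer than both *Zfp37* promoters.

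After 4OHT, genes with a KRAB match lay above 0 in larger number than those without, a difference that is described here without a test. With 4OHT + siCtrl, 100 of 120 genes with a KRAB match had a log2 fold change above 0, with a median of 0.46, and 8 were called higher and 0 lower. Without a KRAB match, 78 of 122 were above 0, with a median of 0.11, and 3 were called higher and 4 lower. All Zfp genes together gave 182 of 247 above 0, a median of 0.24, and 12 calls higher and 4 lower, while over all 10694 genes 6103 were above 0, the median was 0.08 and 6.08% were called, 2.6% higher and 3.48% lower. The KRAB median stayed at 0.38 under median-ratio scaling, at 0.42 under quantile normalization and between 0.36 and 0.50 with each library left out, whereas that of genes without a KRAB match was -0.03 without the first 4OHT + siCtrl library. The number of Zfp genes called rested on single libraries, with 2 without either siCtrl library, 26 without the first and 25 without the second 4OHT + siCtrl library.

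In the other 4OHT comparisons, the shift was smaller with all libraries in. The 4OHT + siCtrl libraries were also harvested at day 6, so they differ from 4OHT day 6 by experiment and not by time. At 4OHT day 5, 64 of 98 genes with a KRAB match were above 0, with a median of 0.09, and 44 of 97 without, with a median of -0.03, and under quantile normalization the first of these medians was -0.01. At 4OHT day 6, where 11.1% of all genes (4.88% higher, 6.2% lower) and 19 Zfp genes (9 higher, 10 lower) were called, 87 of 133 genes with a KRAB match were above 0, with a median of 0.17, and 61 of 123 without, with a median of 0.00. Without the second 4OHT day 6 library, the KRAB median was -0.06, with 59 of 133 above 0, and without the first it was 0.41, with 106 above 0. The upward shift at day 6 was thus absent without the second library. The second library also had the higher median level of the Zfp genes with PD0325901 (4.05 FPKM against 3.46) and with 4OHT + PD0325901 (5.17 against 4.01), as at day 6 (4.87 against 3.84). Counts of calls with the replicate block, which models a difference shared by libraries of the same number, are given in the closing section. The number of Zfp genes called at day 6 was 7 and 9 without the first or the second untreated library.

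**Figure D3:**
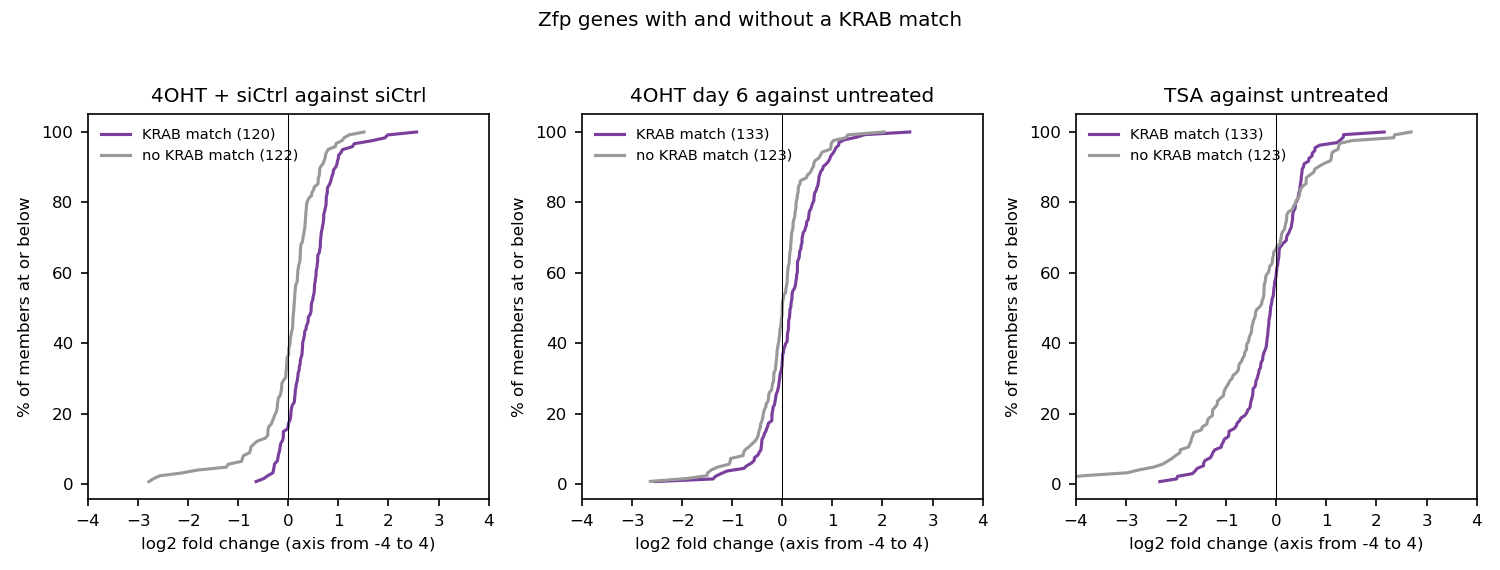
Cumulative share of Zfp genes against log2 fold change for 4OHT + siCtrl, 4OHT day 6 and TSA, with genes with and without a KRAB match as separate lines (120 and 122 genes, then 133 and 123 in the others). The KRAB line lies to the right with 4OHT + siCtrl, at medians of 0.46 against 0.11, while at day 6 the medians are 0.17 and 0.00 and the first turns to -0.06 without the second 4OHT day 6 library.

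The 3 4OHT effects share no library, and 194 Zfp genes were tested in all. Of these, 63 (32.5%) were above 0 in all 3 and 32 (16.5%) below, against 23% and 21.6% of the 8141 genes tested. Across these genes, which are not independent replicates, Pearson's r was 0.54 between day 5 and 4OHT + siCtrl, 0.44 between day 5 and day 6, and 0.58 between 4OHT + siCtrl and day 6, and over all genes 0.34, 0.40 and 0.61. *Zfp37* was the only Zfp gene called higher in all 3, and *Zfp503* and *Zfp521* were called lower in all 3, where 0.283% of all genes were called higher and 0.614% lower in all 3. Genes called in 1 effect could lie apart in another. *Zfp185*, a LIM domain protein without C2H2 fingers, was called lower at day 6 (-1.03), while its log2 fold change was 0.72 at day 5 and -1.24 with 4OHT + siCtrl.

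**Figure D4:**
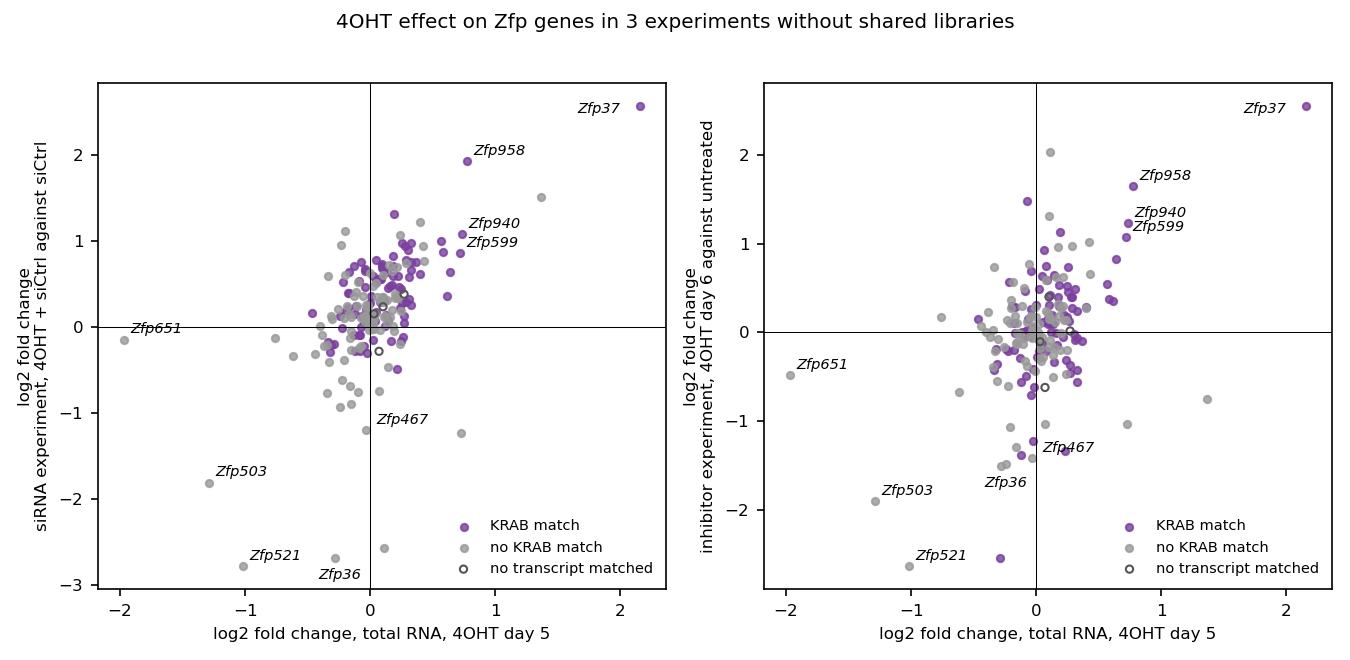
Log2 fold change of each Zfp gene at 4OHT day 5 (horizontal) against that with 4OHT + siCtrl (left) or at 4OHT day 6 (right), with genes with a KRAB match in purple, without in grey and without a matched transcript as open circles. *Zfp37* is at the upper right of both panels, at 2.16 with 2.56 or 2.55, and *Zfp503* and *Zfp521* are at the lower left of both.

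*Zfp503* and *Zfp521* have no KRAB match and act in differentiation, *Zfp503* as a corepressor of the family that also holds *Zfp703*, and *Zfp521* as a many-fingered regulator of progenitor cells with 27 fingers found here. *Zfp503* was at 8.85, 9.76 and 10.0 FPKM untreated, 4.01, 3.57 and 3.96 FPKM at 4OHT day 5 and 5.94, 6.81 and 6.41 FPKM in long-term KO. It was at 23.5 and 26.5 FPKM with siCtrl and 11 and 4.49 FPKM with 4OHT + siCtrl, and at 27.1 and 27.4 FPKM untreated and 9.33 and 5.57 FPKM at 4OHT day 6. Every 4OHT library was below the controls of its experiment, while the 4OHT replicates themselves differed in the siRNA experiment. The decrease was 2.44-fold at day 5 (log2 fold change -1.29, SE 0.07, adjusted p = 1.05e-05) and 3.75-fold at day 6 (-1.91, SE 0.23, adjusted p = 0.002), and -1.81 on the log2 scale with 4OHT + siCtrl (SE 0.39, adjusted p = 0.034), a call lost without either siCtrl library (-1.90 and -1.72, adjusted p = 0.14 and 0.19).

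The locus of *Zfp503* is chr14:22803184-22808823 (mm9). Its protein has 652 residues, and its promoter is shown beside those of the genes that rose (GRCm38.p6, minus strand, CG in capitals).
Zfp503, chr14:21989552-21989851: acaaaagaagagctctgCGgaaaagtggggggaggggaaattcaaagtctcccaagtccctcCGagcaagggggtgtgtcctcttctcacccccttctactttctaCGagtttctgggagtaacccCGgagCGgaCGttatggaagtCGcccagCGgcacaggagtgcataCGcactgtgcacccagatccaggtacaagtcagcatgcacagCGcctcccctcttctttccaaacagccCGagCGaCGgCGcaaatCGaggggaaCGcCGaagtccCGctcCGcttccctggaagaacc
It holds 19 CG dinucleotides, which 28.4% of all promoters reach, a number between those of the *Zfp37* promoters.

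*Zfp521* fell early and was high in long-term KO. It was at 4.50, 4.28 and 4.71 FPKM untreated, 2.03, 2.10 and 2.42 FPKM at 4OHT day 5 and 10.4, 8.66 and 9.54 FPKM in long-term KO, 3 groups that did not overlap. In the siRNA experiment it was at 12.4 and 11.6 FPKM with siCtrl, 2.66 and 2.12 FPKM with siDnmt1, and 2.34 and 1.17 FPKM with 4OHT + siCtrl. In the inhibitor experiment it was at 8.88 and 8.52 FPKM untreated, 1.13 and 0.914 FPKM with TSA, 3.53 and 9.01 FPKM with PD0325901, and 1.18 and 1.47 FPKM at 4OHT day 6. In these 2 experiments, all treated libraries but the second with PD0325901 were below the controls. The log2 fold change was -1.01 at day 5 (SE 0.09, adjusted p = 9.7e-05), -2.78 with 4OHT + siCtrl (SE 0.33, adjusted p = 0.0066), -2.64 at day 6 (SE 0.42, adjusted p = 0.0053), and 1.06 in long-term KO against untreated cells (adjusted p = 1.7e-05). It was -2.29 with siDnmt1 (adjusted p = 0.014), -2.98 with TSA (adjusted p = 0.00069) and -0.61 with PD0325901 (adjusted p = 0.38). Near the 2-fold limit, the day 5 call was lost without the third untreated or the first or second day 5 library (-0.97 to -0.99), and the long-term KO call without the first long-term KO library (1.00). The call with 4OHT + siCtrl was lost without either siCtrl library (adjusted p = 0.062 and 0.07), and that with siDnmt1 without any 1 of its 4 libraries (adjusted p = 0.096 to 0.11).

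*Zfp467*, a regulator that favours fat over bone formation, was also low at day 6 and high in long-term KO. It was at 1.15, 1.12 and 1.22 FPKM untreated and 2.26, 3.41 and 2.46 FPKM in long-term KO (log2 fold change 1.13, called, 0.96 without the second long-term KO library). With 4OHT + siCtrl it was at 1.07 and 0.871 FPKM, against 2.48 and 2.23 FPKM with siCtrl (-1.20, called, adjusted p = 0.14 without either siCtrl library), and at 4OHT day 6 at 1.04 and 1.41 FPKM, against 3.31 and 3.51 FPKM untreated (-1.42, called, adjusted p = 0.084 to 0.10 without either untreated or the first day 6 library). At day 5 it was at 0.968, 1.00 and 1.48 FPKM, which overlaps with untreated cells. Of the 19 regulators without a KRAB box listed for this purpose and tested at day 6, 4 were called lower and 0 higher where 6.2% of all genes were called lower, 3 were above 0 and the median was -0.46 (-0.23 to -0.53 with each library left out), beside a median of 0.00 over all genes. Their median was also low with PD0325901 (-0.55, 2 of 19 above 0, all genes -0.07) and with TSA (-0.52, 7 of 19, all genes 0.10). These comparisons share the untreated libraries with day 6. In the other 4OHT effects, the median lay near 0. With 4OHT + siCtrl, 3 of 18 were called lower (3.48% of all genes), 11 were above 0 and the median was 0.03, and at day 5, 2 of 15 were called lower (1.37% of all genes), 7 were above 0 and the median was -0.04. The sign of either median turned with a library left out.

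Among the Zfp proteins that act on RNA, *Zfp36* (tristetraprolin) speeds the decay of AU-rich mRNAs and is induced by growth factors. It was at 170 and 174 FPKM with siCtrl, 34.4 and 33.9 FPKM with siDnmt1, 53.4 and 13.1 FPKM with 4OHT + siCtrl, and 21.2 and 25.5 FPKM with 4OHT + siDnmt1, all of them below siCtrl. In the inhibitor experiment, it was at 73.4 and 76.2 FPKM untreated, 29.3 and 107 FPKM with TSA, 105 and 47.8 FPKM with PD0325901, 24.2 and 28.6 FPKM at 4OHT day 6, and 35.7 and 49.1 FPKM with 4OHT + PD0325901. All 4 libraries with 4OHT lay below the untreated ones, while those of TSA and of PD0325901 alone fell on either side. In total RNA, it was at 11.8, 12.2 and 12.6 FPKM untreated, 9.21, 10.7 and 10.2 FPKM at 4OHT day 5 (-0.28, below 2-fold) and 22.8, 21.1 and 25.0 FPKM in long-term KO, which was called higher against day 5 (1.18, adjusted p = 4.4e-06). The log2 fold change with 4OHT + siCtrl was -2.69 (SE 0.58, adjusted p = 0.033), a call lost without either siCtrl library (adjusted p = 0.15 and 0.17), while those with siDnmt1 (-2.33, adjusted p = 0.065) and at day 6 (-1.5, adjusted p = 0.099) were not called. Of 10 Zfp genes of RNA and ribosome proteins, 5 were above 0 at day 5 (median 0.00), 9 with 4OHT + siCtrl (median 0.18), 6 at day 6 (median 0.09) and 3 in long-term KO (median -0.08), and 2 were called higher at day 6, where 4.88% of all genes were, *Zfp593*, which acts in ribosome assembly (log2 fold change 1.31), and *Zfp346*, which binds double-stranded RNA (1.02). *Zfp593* was at 3.48 and 3.39 FPKM untreated and 8.78 and 8.52 FPKM at day 6, without overlap. Both calls were lost without either untreated library (adjusted p = 0.052 and 0.058 for *Zfp593*, 0.091 and 0.088 for *Zfp346*), and that of *Zfp346* without the second day 6 library (0.75).

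Knockdown of *Dnmt1* alone gave few calls among Zfp genes, 2 higher and 3 lower where 4.8% of all genes were called, 2.36% higher and 2.44% lower. Only 70 of 247 Zfp genes were above 0, with a median of -0.22, and over all genes 4243 of 10694, with a median of -0.09. The median of the Zfp genes was -0.13 under median-ratio scaling and -0.16 under quantile normalization. The largest change was that of *Zfp575*, a finger gene without a KRAB match. It was at 1.38 and 2.15 FPKM with siCtrl, 107 and 126 FPKM with siDnmt1, 1.65 FPKM in the first and listed at 0 in the second 4OHT + siCtrl library, and 80.8 and 41.4 FPKM with 4OHT + siDnmt1. In the inhibitor experiment it was between 1.29 and 2.46 FPKM outside TSA and listed at 0 in both TSA libraries, and it was listed at 0 in all total RNA libraries. The siDnmt1 libraries thus stood far apart from all others, with a log2 fold change of 5.99 (SE 1.22, adjusted p = 0.038) against siCtrl, a call lost when any of these 4 libraries was left out (5.69 to 6.30, adjusted p = 0.18 to 0.20). *Zfp575* is annotated at chr7:25368857-25372660 (mm9), and the assembled locus started at 25364401 and 25368711 in the siDnmt1 libraries and at 25368113 and 25368718 in the 4OHT + siDnmt1 libraries, at a lower coordinate than the annotated start in each. The other calls were *Zfp37* (higher) and *Zfp521*, *Zfp383* (-1.13) and *Zfp408* (-1.12) (lower). Without single libraries, those of *Zfp383* and *Zfp408* were lost too (adjusted p = 0.11 to 0.21). *Zfp706* rose from 42.6 and 45.3 FPKM to 81.3 and 91.6 FPKM, an increase below 2-fold (0.97 on the log2 scale, adjusted p = 0.012).

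Added to 4OHT, siDnmt1 gave 1 call among Zfp genes, that of *Zfp575* (adjusted p = 0.048), where 1.43% of all genes were called (1.02% higher, 0.411% lower). Since 1 of the 4OHT + siCtrl libraries is listed at 0, the log2 fold change of 7.11 depends on the pseudocount. In 8 alternatives the call was not kept, with values of 6.63 to 8.81. Among them were those without the first (6.63) or second (7.59) 4OHT + siDnmt1 library. Of 247 Zfp genes, 151 were above 0, with a median of 0.11, and over all genes 5079 of 10694, with a median of -0.02. The median of the Zfp genes was 0.00 under quantile normalization and without the second 4OHT + siCtrl library, and 0.21 without the first. The number of Zfp genes called there was 12 without the first and 5 without the second 4OHT + siCtrl library. No Zfp gene was called for the interaction of 4OHT and siDnmt1 by limma. Of 247 Zfp genes, 198 were above 0 for it, with a median of 0.26, against 58.2% of all genes with a median of 0.07, and with each library left out 170 to 206 were (median 0.17, without the second 4OHT + siCtrl library, to 0.37). Under quantile normalization the median of the Zfp genes was 0.13. Of these genes, 30 of 247 had an unadjusted p below 0.05, near the 10% of all genes, and the lowest adjusted p was 0.102, where 0.196% of all genes were called. The number called rose without the first 4OHT + siCtrl library. That left 1 library in its group, and the number is not set against this share.

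In long-term KO, more Zfp genes were called than at day 5. Against untreated cells, 12 were called higher and 1 lower, where 14.2% of all genes were called, 7.77% higher and 6.44% lower. At an adjusted p below 0.05 of any fold, 91 were higher and 25 lower, 116 of 199, where 68% of all genes passed. The median was 0.18 (all genes 0.07), and 0.03 under quantile normalization. *Zfp185* was at 0.35, 0.401 and 0.429 FPKM untreated, 0.836, 0.765 and 0.563 FPKM at 4OHT day 5 and 2.16, 2.19 and 1.97 FPKM in long-term KO, the largest increase among Zfp genes (log2 fold change 2.16 against untreated cells). It met the filter only through its long-term KO libraries, so this increase is a description. *Zfp637*, a finger gene without a KRAB match, was at 7.78, 7.82 and 7.06 FPKM untreated, 7.26, 7.55 and 6.34 FPKM at day 5 and 20.3, 21.6 and 19.1 FPKM in long-term KO (1.42 against untreated cells, SE 0.08). Neither of them overlapped with untreated cells in long-term KO, and *Zfp637* overlapped with them at day 5. Among genes with a KRAB match, *Zfp28* (1.40), *Zfp791* (1.32), *Zfp935* (1.22), *Zfp558* (1.18) and *Zfp87* (1.12) were called higher, and so were *Zfp808* (1.12) and *Zfp934* (1.02), in which 29.8% and 48% of the mRNA windows occur in another gene's mRNA. The first 5 all fell below 2-fold with a pseudocount of 1 (0.66 to 0.99), as did *Zfp558* (0.87) and *Zfp87* (0.97) under quantile normalization, and the number called in this comparison was then 3 and 7. Some of these genes were above untreated cells at day 5 already, below 2-fold, with *Zfp185* at 0.72, *Zfp558* at 0.64 and *Zfp935* at 0.58. *Zfp791* had means of 0.772 FPKM untreated and 0.893 FPKM at day 5. Like *Zfp185*, it met the filter only through long-term KO, and its increase is a description. *Zfp941*, also with a KRAB match, was the gene called lower, at 1.66, 1.74 and 1.62 FPKM untreated, 1.63, 1.76 and 1.74 FPKM at day 5 and 0.522, 0.664 and 0.71 FPKM in long-term KO (-1.29, SE 0.11, and -0.71 with a pseudocount of 1). Against day 5, 12 were called higher and 4 lower (*Zfp37*, *Zfp941*, *Zfp599* and *Zfp940*), where 12.9% of all genes were called (6.71% higher, 6.18% lower), and these comparisons share the long-term KO libraries.

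With TSA, most Zfp genes lay below 0 and most genes as a whole above it. Of 261 Zfp genes, 95 were above 0, with a median of -0.17, and of all 11437 genes tested 6220, with a median of 0.10. Under median-ratio scaling the median of the Zfp genes was -0.24. Under quantile normalization it was -0.53, beside 0.01 over the other genes, and the calls were 8 higher and 88 lower. The shares of all genes called belong to the main scaling, so these counts are not set against them. The lower calls fell on genes with and without a KRAB match, 16 of 133 with a median of -0.11 and 33 of 123 with a median of -0.33. The first share is 12% and lies near the 12.8% of all genes called lower, and the second is 26.8%. With each library left out, the first median was -0.05 (without the first TSA library) to -0.10 and the second -0.34 to -0.43. *Zfp532* was at 6.69 and 15.1 FPKM untreated and 0.629 and 0.589 FPKM with TSA (log2 fold change -3.84, SE 0.38), *Zfp704* at 4.22 and 4.72 and then 0.769 and 0.704 FPKM (-2.45, SE 0.22), and *Zfp292* at 4.88 and 4.94 and then 1.09 and 0.808 FPKM (-2.27, SE 0.38). *Zfp281*, a repressor in stem cells, was at 17.4 and 17.5 FPKM untreated and 5.88 and 7.46 FPKM with TSA. In these 4 genes, the TSA libraries lay well below both untreated ones, although the untreated libraries of *Zfp532* differed from each other. *Zfp653* was at 2.68 and 4.11 FPKM untreated and listed at 0 in both TSA libraries, both 4OHT + PD0325901 libraries and 1 PD0325901 library, so no fold change is given.

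The Zfp genes that rose with TSA were led by *Zfp185*, at 1.29 and 0.976 FPKM untreated and 6.67 and 5.72 FPKM with TSA (log2 fold change 2.36, SE 0.28). *Zfp277*, a repressor of the *Cdkn2a* locus, was at 10.6 and 10.2 FPKM untreated and 26.3 and 23.9 FPKM with TSA (1.26, SE 0.15). *Zfp365*, which acts in genome stability, was at 7.12 and 7.17 FPKM untreated, 16.2 and 17.7 FPKM with TSA, and 13.6 and 14.7 FPKM at 4OHT day 6. None of these TSA groups overlapped with untreated cells. *Zfp87* was called higher (2.15, adjusted p = 0.022), but its untreated libraries were at 6.26 and 1.24 FPKM and its TSA libraries at 14.5 and 11.5 FPKM, and the call was lost without the second untreated (1.03, adjusted p = 0.06) or the first or second TSA library (adjusted p = 0.11 and 0.079). Among the corepressors of KRAB zinc fingers, 6 of 19 tested were called lower with TSA and 0 higher, with a median of -0.35, where 32.1% of all genes were called and 12.8% lower. *Trim28* was at 89.5 and 90.8 FPKM untreated and 32.9 and 28.4 FPKM with TSA (log2 fold change -1.56), and the others were *Cbx5*, *Chd3*, *Dnmt3a*, *Smarcad1* and *Uhrf1*.

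With PD0325901 alone, 2 Zfp genes were called higher and 5 lower, where 7.22% of all genes were called (3.07% higher, 4.15% lower), and the median of -0.07 was that of all genes. It was 0.05 without the first and -0.19 without the second PD0325901 library. *Zfp703*, a corepressor related to *Zfp503*, was at 10.1 and 10.1 FPKM untreated, 31.6 and 26.4 FPKM with PD0325901, 10.2 and 8.63 FPKM at 4OHT day 6, 29.4 and 23.3 FPKM with 4OHT + PD0325901, and 20.7 and 23.0 FPKM with TSA. All libraries with an inhibitor were above all without. The increase with PD0325901 was 2.84-fold (log2 fold change 1.5, SE 0.16, adjusted p = 0.0013), and with 4OHT + PD0325901 against 4OHT day 6 it was 1.47 on the log2 scale (adjusted p = 0.0028). *Zfp503* moved the other way, to 10.6 and 12.4 FPKM with PD0325901 (-1.25, adjusted p = 0.013), a call lost without either untreated or the first PD0325901 library (adjusted p = 0.074 to 0.088). *Zfp52*, with a KRAB match, was at 7.80 and 6.66 FPKM untreated, 1.91 and 2.27 FPKM with PD0325901, 11.2 and 11.3 FPKM at 4OHT day 6, and 1.68 and 3.18 FPKM with 4OHT + PD0325901. Its level was thus low in all libraries with PD0325901. The log2 fold change was -1.74 against untreated cells (adjusted p = 0.0081), a call lost without the first or second untreated library (-1.63 and -1.86). On a background of 4OHT it was -2.23 (adjusted p = 0.0051). This call and that of *Zfp703* on the same background were lost with only the 2 groups compared in the fit. The number of calls with PD0325901 was 2 and 1 without the first or second untreated library, 2 without the first PD0325901 library and 9 without the second.

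PD0325901 added to 4OHT gave 5 calls higher and 1 lower, where 3.75% of all genes were called (2.37% higher, 1.38% lower), and in all 2 without the first and 3 without the second 4OHT day 6 library. *Zfp791*, with a KRAB match, was at 1.13 and 2.26 FPKM at 4OHT day 6 and 8.60 and 5.31 FPKM with 4OHT + PD0325901 (log2 fold change 2.01, adjusted p = 0.027), a call lost without the first library of either group (1.54 and 1.66, adjusted p = 0.10 and 0.13). It was at 0.699 and 0.659 FPKM untreated and 1.09 and 1.5 FPKM with PD0325901 alone. For the interaction of 4OHT and PD0325901, limma called no Zfp gene, where 0.699% of all genes were called. An unadjusted p below 0.05 was found for 17 of 261 and for 15.8% of all genes, and the lowest adjusted p was 0.125.

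Genes no more than 250 kb apart formed 19 clusters of at least 3 Zfp genes, which held 119 of the 275, while 114 had no neighbour within that distance. The largest, at chr17:21520712-22593656 (mm9), holds 15 genes, all with a KRAB match. After 4OHT its genes lay together above 0. They did so in 8 of 8 tested at day 5 (median 0.31), 13 of 13 with 4OHT + siCtrl (median 0.78) and 14 of 15 at day 6 (median 0.39), and with 4OHT + siCtrl in all 13 under either scaling and with each library left out. At day 6 it was 10 of 15 (median 0.12) without the second 4OHT day 6 library and 15 of 15 (median 0.65) without the first. Of all genes, 50.3%, 57.1% and 49.7% were above 0 in these comparisons. Called higher were *Zfp52*, *Zfp760* and *Zfp758* with 4OHT + siCtrl, where 2.6% of all genes were, and none at days 5 and 6, where 2.09% and 4.88% were. In long-term KO, 4 of 8 were above 0. With PD0325901, 3 of 15 were above 0 (median -0.37), but between -0.04 and -0.72 with single libraries left out, and *Zfp52* and *Zfp53* (-1.36) were called lower. *Zfp53* was at 6.15 and 11.2 FPKM untreated and 2.61 and 3.83 FPKM with PD0325901. *Zfp948*, only 4445 bases from *Zfp52*, was at 14.2 and 15.2 FPKM untreated and 14.9 and 14.2 FPKM with PD0325901 (log2 fold change -0.01). The *Zfp52* and *Zfp53* calls with PD0325901 and the *Zfp52* call with 4OHT + siCtrl were lost without single control libraries, with adjusted p = 0.051 to 0.18.

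The cluster at chr7:30553571-30954746 holds 14 of the genes, 10 with a KRAB match, and was mixed. With TSA, *Zfp420* was called higher (1.10) and *Zfp30* (-1.97), *Zfp260* (-1.70), *Zfp383* (-1.37), *Zfp146* (-1.12) and *Zfp74* (-1.10) lower, where 19.3% of all genes were called higher and 12.8% lower. *Zfp30* was at 2.60 and 4.49 FPKM untreated and 0.845 and 0.756 FPKM with TSA, while *Zfp84*, 3371 bases away, was at 1.60 and 1.57 and then 1.48 and 1.70 FPKM. *Zfp260* was at 14.1 and 14.2 FPKM untreated and 4.54 and 4.02 FPKM with TSA. At 4OHT day 6, *Zfp940* and *Zfp566* (1.12) were called higher in this cluster, where 4.88% of all genes were. Both calls were lost without the first untreated library (1.09 and 0.98), and *Zfp260*, 4566 bases from *Zfp566*, was at -0.38. The second cluster of chromosome 17, chr17:32902442-33768659, was below 0 with siDnmt1 in 9 of 9 genes tested (median -0.37, and 0 or 1 of 9 above 0 with each library left out). None was called, where 4.8% of all genes were called and 39.7% were above 0. With 4OHT + siCtrl, 8 of 9 were above 0 (median 0.36), where 57.1% of all genes were. With each library left out it was 6 to 8 (median 0.24 to 0.56), and at day 6 it was 2 to 6 (median -0.09 to 0.28). This is 1 of 19 clusters, and its values are a description.

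With TSA, 2 clusters on chromosome 7 in whose genes no KRAB match was found lay below 0 throughout. The search does not show that these genes lack the box. Of all genes, 54.4% were above 0 and 12.8% were called lower. These 2 clusters were chosen among the 19 by their values with TSA, which are a description. At chr7:24866916-25372660, 0 of 7 genes tested were above 0 (median -0.80), with *Zfp111*, *Zfp428* and *Zfp575* called. At chr7:4866819-5005325, 0 of 6 were (median -1.01), and *Zfp628* (-1.49), *Zfp784* (-1.35) and *Zfp524* (-1.28) were called. In *Zfp784*, 36% of the mRNA windows occur in another gene's mRNA. *Zfp865*, which lies 1223 bases from *Zfp784* and 1888 bases from *Zfp524*, was at 5.31 and 5.06 FPKM untreated and 4.03 and 5.01 FPKM with TSA (-0.20). *Zfp524* was at 6.78 and 7.47 FPKM untreated and 2.91 and 2.85 FPKM with TSA, without overlap. A cluster of 5 genes with a KRAB match at chr6:47769265-48036592 had 1 of 5 above 0 (median -1.45), with *Zfp282*, *Zfp777* and *Zfp746* called. Over all clusters, 39 of 110 genes were above 0 with TSA (median -0.17), and outside them 56 of 151 (median -0.18).

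**Figure D5:**
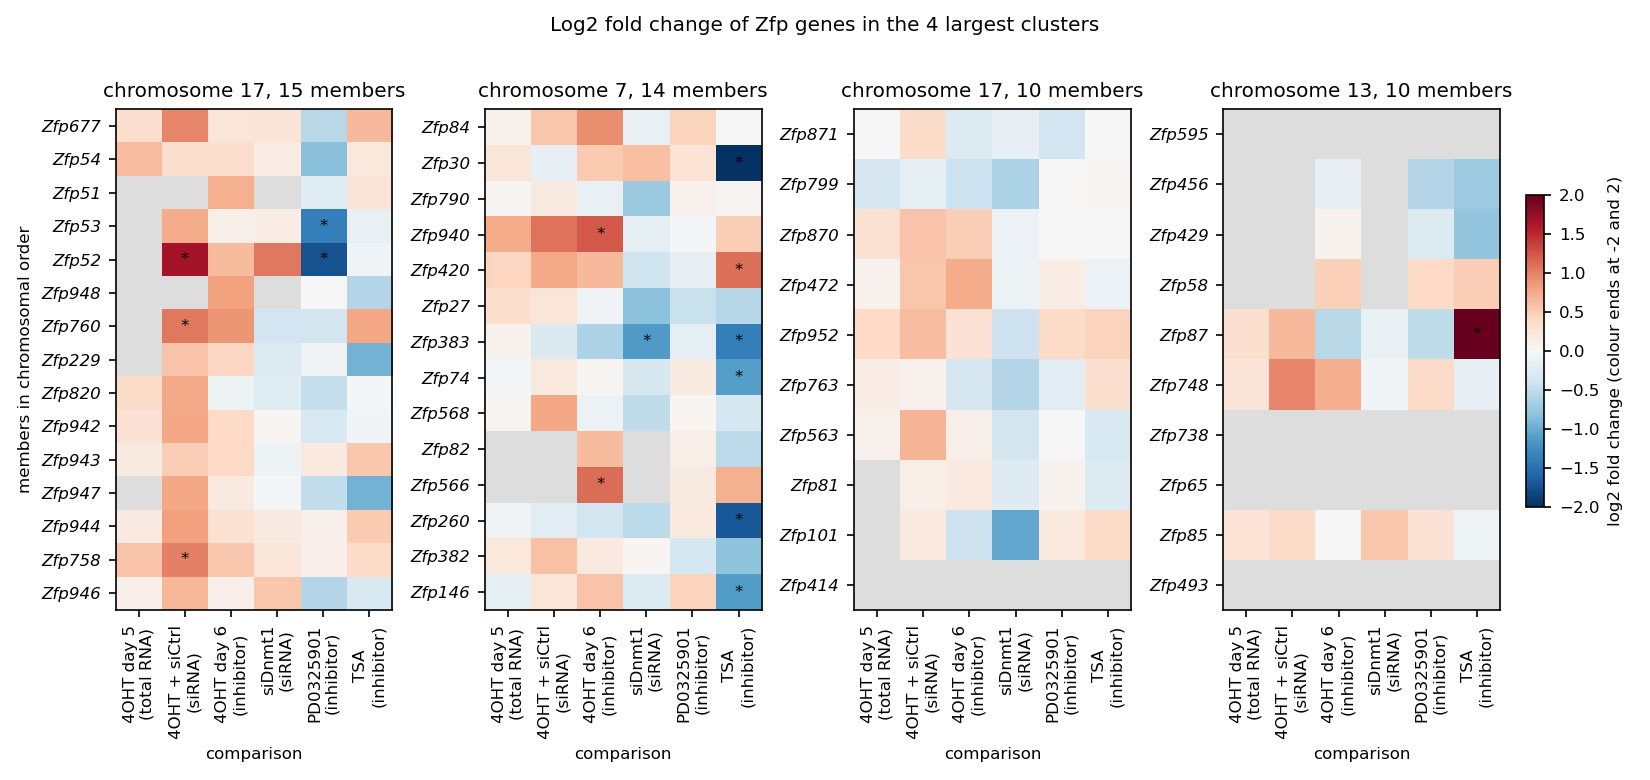
Log2 fold change (colour, ends at -2 and 2) of the Zfp genes of the 4 largest clusters, in chromosomal order from top to bottom and with 6 comparisons as columns, where a star marks a call and grey a gene not tested. In the cluster of 15 on chromosome 17, the 4OHT + siCtrl column is above 0 in all 13 genes tested. In the cluster of 14 on chromosome 7 the TSA column holds 1 call higher beside 5 lower, where 19.3% of all genes were called higher and 12.8% lower.

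The KRAB zinc finger genes listed for binding retroelements or imprinted regions are too few to set against the share of all genes called. Of 6 listed, *Zfp57* and *Zfp445*, which keep imprints, *Zfp568*, which represses a placental *Igf2* transcript, and *Zfp932*, which represses ERVs, were tested. With 4OHT + siCtrl, all 4 were above 0 (median 0.62) and none was called, where 6.08% of all genes were, with *Zfp932* at 9.34 and 10.3 FPKM against 6.23 and 5.73 FPKM with siCtrl (log2 fold change 0.70, adjusted p = 0.023) and *Zfp445* at 0.54 (adjusted p = 0.041). In *Zfp932*, 37.6% of the mRNA windows occur in another gene's mRNA, so its reads cannot all be assigned with certainty. At 4OHT day 5 and day 6, 2 of these 4 genes were above 0. *Zfp57* was at 16.5 and 17.7 FPKM untreated and 9.32 and 7.11 FPKM with TSA, without overlap (log2 fold change -1.06, called, -0.87 without the second TSA library). Among the corepressors, *Atf7ip*, the partner that stabilizes Setdb1, was called higher at 4OHT day 5 (1.47), in long-term KO (1.04) and with 4OHT + siCtrl (1.28). At 4OHT day 6 *Atf7ip* was at 25.0 and 35.9 FPKM, against 15.7 and 16.9 FPKM untreated, which is below 2-fold (0.87, adjusted p = 0.029) and not called. Of the corepressors, 1 of 16 was called higher at day 5, where 2.09% of all genes were, and 2 of 16 in long-term KO (7.77%). With 4OHT + siCtrl it was 1 of 19 (2.6%), with 8 of 19 above 0 and a median of -0.05.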

How the data were processed

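RNA-seq libraries of *Setdb1* cKO iMEFs (27 in 3 experiments) were used. According to the submitters' processing notes and the study's methods, the authors mapped the reads with TopHat2 2.0.12 on mm9, kept 1 position for reads with several hits, and computed the deposited FPKM and their confidence intervals for each library with Cufflinks on RefSeq genes. Total RNA loci carry no names and were matched to genes by position (a locus had to cover 95% of exactly 1 gene). Loci that joined several genes gave no value, and loci that shared a symbol were summed. The Zfp genes, gene lists and comparisons were chosen with earlier results of these data known.

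Each experiment was fitted on its own with limma 3.58.1 (R 4.3.3) on log2(FPKM + 0.1), with all its groups, trended variances and two-sided tests, and p-values were adjusted over all genes tested (Benjamini-Hochberg). The filter was 1 FPKM in at least 3 (total RNA) or 2 (other) libraries. The fold changes understate those of low genes, and a gene listed at 0 can be a failed estimate. Levels were compared only within an experiment. The fit was tested on simulated data, in 1 comparison per experiment. Of genes changed 2-fold, it called 40.3% (total RNA), 27.3% (siRNA) and 32.8% (inhibitor). Of genes changed 4-fold, it called 98.5%, 91% and 85.1% in the same order. A gene that was not called may thus still have changed by about 2-fold. Other steps used Python 3.11.15, pandas 2.3.3, numpy 2.4.6 and matplotlib 3.10.9. Genes named are, per comparison, up to 8 in each direction with the largest change among called genes whose groups do not overlap, members of the role lists, the 5 with the highest mean FPKM, those nearest the limit of the rule, in clusters the genes at either end of the range, and neighbours of which 1 was called. *Zfp142*, *Zfp808*, *Zfp934* and the genes passed through few groups were chosen after their values were seen. KRAB and finger matches come from translated GENCODE vM1 transcripts, promoters from RefSeq.

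The alternatives covered the pseudocount, the filter, scaling, the groups in the fit, the replicate block, each library left out, the limits of a call, the members and the handling of loci. The deposited tables of the authors' own comparisons were not used.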

Additional observations from a re-analysis of the deposited data

How the results depend on the processing

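Alternatives were computed for 93 results of single genes, those with the largest changes and the called members of the role lists, none of which turned its direction. Not all medians of gene groups that turned are given above. Under quantile normalization, the median of all Zfp genes turned from 0.03 to -0.02 at 4OHT day 5. It turned from -0.07 to 0.08 with PD0325901 and from 0.17 to -0.06 for the interaction with PD0325901. With a library left out, it turned from 0.10 to -0.07 at day 6. For 4OHT + PD0325901 against 4OHT day 6 it then turned from 0.10 to -0.06. Of 1135 alternatives for the 93 results, 905 kept the call, 230 did not, and 29 results kept it throughout. The number of Zfp genes called, in the order 4OHT day 5, long-term KO against untreated, long-term KO against day 5, siDnmt1, 4OHT + siCtrl, 4OHT + siDnmt1 against 4OHT + siCtrl, 4OHT day 6, PD0325901, TSA and 4OHT + PD0325901 against 4OHT day 6, was 3, 13, 16, 5, 16, 1, 19, 7, 64 and 6. It moved by more than 1.5 times as follows. With a pseudocount of 1 it was 3 (long-term KO against untreated), 6 (against day 5), 3 (siDnmt1), 9 (4OHT + siCtrl), 2 (4OHT + siDnmt1), 9 (day 6) and 40 (TSA). With a filter of 5 FPKM it was 6 and 8 in the comparisons of long-term KO, 0 with 4OHT + siDnmt1 and 37 with TSA, and with quantile normalization 7 in long-term KO against untreated. Without the fold limit it was 53 (day 5), 116 and 116 (long-term KO), 11 (siDnmt1), 37 (4OHT + siCtrl), 2 (4OHT + siDnmt1), 37 (day 6) and 16 (PD0325901). With only genes at 1 FPKM in all 18 libraries, it was 6 and 7 (long-term KO), 3 (siDnmt1), 11 (day 6), 38 (TSA) and 3 (4OHT + PD0325901). With only the groups compared in the fit it was 12 (siDnmt1), 1 (4OHT + siCtrl) and 1 (4OHT + PD0325901). The single call with 4OHT + siDnmt1 was 0 with a pseudocount of 0.01, no filter, quantile normalization, the groups compared alone and genes at 1 FPKM in all 18 libraries. Leaving out the 24 genes with shared mRNA windows, an alternative added after seeing the data, gave 17 at day 6, 15 with 4OHT + siCtrl and 62 with TSA.

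With the replicate block, the number called was 3 with siDnmt1, 8 with 4OHT + siCtrl and 0 with 4OHT + siDnmt1, and 3, 13, 16, 22, 10, 65 and 8 in day 5, both long-term KO comparisons, day 6, PD0325901, TSA and 4OHT + PD0325901. No call was made for an interaction with it. Replicate numbers were not taken as pairing, for which every pair had to be over 0.1. The correlation of deviations from group means between libraries of the same number was -0.07 to 0.03 (siRNA), -0.02 to 0.10 (total RNA) and -0.02 to 0.25 (inhibitors). There, 3 of 10 pairs were over 0.1, which were those among PD0325901, 4OHT day 6 and 4OHT + PD0325901 (0.21 to 0.25), so libraries of the same number did deviate together in these groups.

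With each library left out, the number called was 2 to 3 (day 5), 12 to 13 and 15 to 18 (long-term KO), 1 to 2 (siDnmt1), 2 to 26 (4OHT + siCtrl), 0 to 12 (4OHT + siDnmt1), 7 to 21 (day 6), 1 to 9 (PD0325901), 52 to 61 (TSA) and 2 to 5 (4OHT + PD0325901), 0 to 15 for the interaction with siDnmt1 and 0 to 1 for that with PD0325901. Where this left 1 library in a group, it was assumed to vary like the other groups. Clusters numbered 18 at a limit of 100 kb and 23 at 1000 kb. No read totals were used, so limits set by depth were not computed.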
